A study of Mus musculus with 3 samples.

Results

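The genes described here encode the proteins of the cytosolic ribosome of the mouse. They were chosen by name: symbols beginning with Rpl or Rps, followed by a number and at most 1 letter, the stalk genes Rplp0, Rplp1 and Rplp2, and Rpsa. At least 1 annotated protein-coding transcript was required. The rule found 80 genes of the 55536 annotated in the gene tables, 49 of the large and 31 of the small subunit. The rule uses symbols and transcript types and no measured value. 3 symbols that match the pattern, Rps4l among them, have no protein-coding transcript and were left out. Some proteins of the ribosome carry other symbols (such as Fau, Rack1 and Rps3a1) and are set beside the members below.

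The libraries hold total RNA, depleted of rRNA, from the cytosolic fraction of bone-marrow-derived macrophages of C57BL/6J mice, primary cells grown from marrow. All 3 libraries form 1 group. The cells had received 100 ng/ml of Lipid A for 12 h, were kept without it for 12 h, and met the same dose again for 30 min. Lipid A is the part of bacterial lipopolysaccharide that macrophages sense. The labels number the libraries as biological replicates 1 to 3 but give the same donor entry for all of them, and no age or sex, so SDs and p-values describe how far these samples differ among themselves, a spread that may be technical. Untreated cells and other fractions are not analysed here, so no value below is a response to Lipid A. In expected counts over annotated genes, replicate 1 had a depth of 28759407, replicate 2 of 54709008 and replicate 3 of 49878183. All 10 macrophage markers were detected, led by Lyz2 at 3194 ± 13.1 TPM, and none of the 19 markers of neutrophils, T and NK, B, erythroid or stromal cells reached 1 TPM in every library.

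A ribosome is built from a large and a small subunit, each an rRNA core covered with proteins that are needed in equal numbers. Their mRNAs are short, abundant and long-lived, and most begin with a run of pyrimidines at the first base, the terminal oligopyrimidine (TOP) motif, which lets the kinase mTORC1 control their translation together. In mammals nearly every one of these genes has left processed pseudogenes, intronless copies made by reverse transcription of the mRNA. Introns of several of the genes carry small nucleolar RNAs, which guide the chemical modification of rRNA.

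Both sequence features were looked up in the annotation. RefSeq start sites (GRCm38.p6) were listed for 60 of the 80 members, and 28 of these, 46.7%, had a C within 5 bases of a listed start followed by at least 4 more C or T on the sense strand. The same pattern stood at 21.5% of 17491 protein-coding genes in that table, and at 23.9% of the 7216 detected ones that are no members. Shown are the 6 most abundant members that matched, from 10 bases before the start, with the pyrimidine run in capitals.
Rps24, chr14:24490668-24490697, plus strand: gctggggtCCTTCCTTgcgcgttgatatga
Rpl19, chr11:98026700-98026729, plus strand: aaacgCCCTCactgcgcatgtgcgccgcgg
Rps27, chr3:90213629-90213658, minus strand: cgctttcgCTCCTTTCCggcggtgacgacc
Rps9, chr7:3704031-3704060, plus strand: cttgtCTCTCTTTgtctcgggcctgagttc
Rpl13a, chr7:45128726-45128755, minus strand: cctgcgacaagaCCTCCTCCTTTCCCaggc
Rpl38, chr11:114668570-114668599, plus strand: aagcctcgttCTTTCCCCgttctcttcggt
The listed start of Rpl38 is the first C of its run, that of Rpl13a lies 2 bases before the run, and that of Rpl19 directly follows it. A gene with no match only lacks these letters in this window, as for Rpl41, Rplp0 and Rpl5. Annotated small nucleolar RNA genes lay within 29 of the 77 detected members on the same strand, 37.7%, against 2.25% of 9080 detected protein-coding genes. In all of these 29 members at least 1 of them lay in an intron of the main coding transcript. Rpl4 held 5 and Rpl13a held 4. In Rpl13a these were Snord32a, Snord33, Snord34 and Snord35a.

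Of the 80 members, 77 were detected at 1 TPM (a level corrected for length, on a scale with the same total in every library) or more in every library, against 17.2% of all annotated genes. 59 members exceeded 100 TPM in every library. The median of the detected members was 182 TPM, against 8.21 TPM for the 9003 other detected protein-coding genes. The levels of the detected members spanned a 47.3-fold range from Rpl41 to Rpl5 in the expected counts table. In the est_counts table, a second quantification of the same libraries, the range was 202-fold, from Rpl41 to Rpl12. With near-identical copies added it was 20.4-fold and 15.6-fold in these tables, with Rps3 as the lowest in both. Large-subunit genes had a median of 168 TPM (n = 46) and small-subunit genes of 198 TPM (n = 31). The ribosome needs its proteins in equal numbers, apart from the stalk, and their quartiles lay at 125 and 248 TPM. TPM is a share, and the 2 genes of 7SL RNA, the RNA of the signal recognition particle, summed to 631841, 648329 and 580186 TPM. When TPM was rescaled over nuclear protein-coding genes alone, the median of the members was 625 TPM.

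Rpl41, which encodes a very short basic peptide of the large subunit, had the highest level, with 758, 908 and 848 TPM in replicates 1, 2 and 3. Rps24, a small-subunit protein, followed with 802, 655 and 617 TPM, so the 2 ranges overlapped. Rps29 had 590, 657 and 497 TPM. It encodes a small zinc-binding protein of the small subunit, and its range overlapped that of Rps24. Behind them came Rplp1 at 477 ± 57.4, Rpl19 at 402 ± 32.2, Rps27 at 388 ± 81.0, Rps12 at 385 ± 47.2 and Rps28 at 359 ± 59.1 TPM (SD, n = 3). Neighbours from Rpl19 to Rps28 were closer to each other than the SD of either.

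Rpl5 had the lowest level among detected members, with 18.0, 17.8 and 17.4 TPM, and each of its libraries lay below every library of the next gene. With Rpl11 and the smallest rRNA, Rpl5 forms a particle that joins the large subunit and, when free, binds the ubiquitin ligase Mdm2. Rpl11 had 148, 155 and 139 TPM, so the genes of this pair did not overlap in any library. Copies of Rpl5 held more counts than Rpl5, and are described with the tables. Next in order stood Rpl37 at 52.9 ± 11.3, Rps3 at 57.9 ± 3.43, Rpl36a at 63.5 ± 4.0, Rpl27 at 71.1 ± 20.1, Rps27l at 71.6 ± 13.5, Rpl10a at 82.4 ± 7.70 and Rpl21 at 85.2 ± 2.94 TPM (SD, n = 3). The order depends on copies for some of them. With copies added, Rpl27 reached 190 ± 15.7 and Rpl36a 97.5 ± 10.7 TPM. Rpl37 reached 58.4, Rpl10a 86.4 and Rpl21 93.8 TPM, and Rps3 and Rps27l kept their levels.

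The stalk is the flexible arm of the large subunit that recruits translation factors, and it holds several copies of Rplp1 and Rplp2 on 1 Rplp0. Rplp1 had 505, 515 and 411 TPM, Rplp2 had 201, 231 and 219 TPM, and Rplp0 had 195, 219 and 178 TPM. Rplp1 lay above both in every library, and the ranges of Rplp2 and Rplp0 overlapped. Rpsa, a small-subunit protein also known as the laminin receptor precursor, had 99.5, 120 and 102 TPM. Rps27a, made as a fusion with ubiquitin, had 248 ± 21.6 TPM (SD, n = 3).

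**Figure D1:**
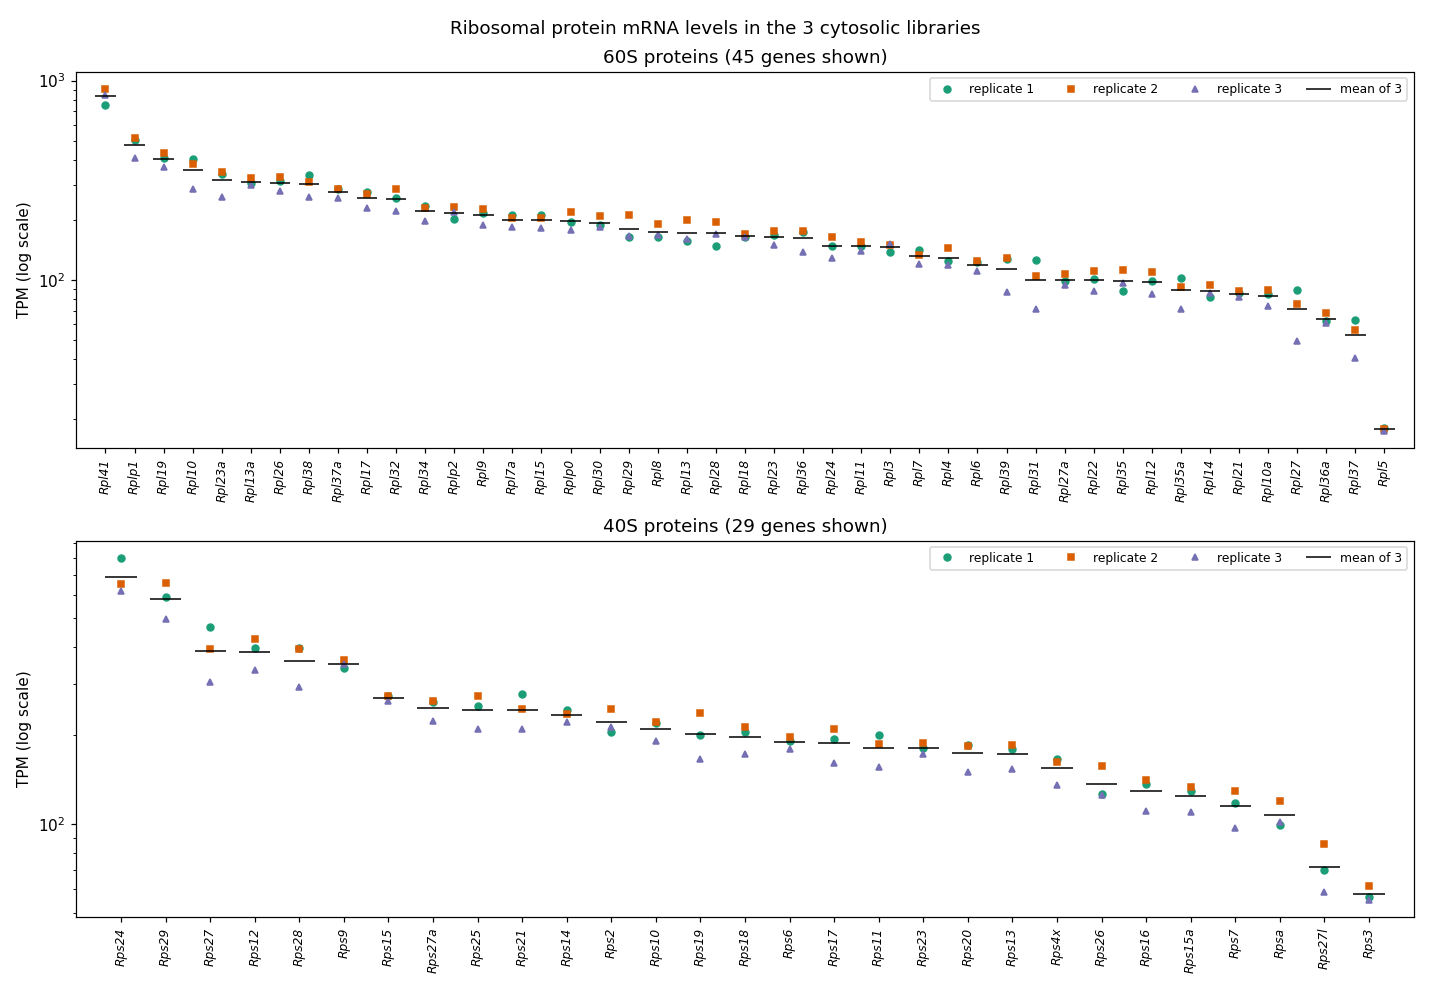
TPM on a log scale of 74 of the 77 detected members in each of the 3 libraries, large-subunit genes above and small-subunit genes below, each ordered by mean; points are libraries and lines their means. Rpl41 leads at 838 TPM, Rpl5 stands alone at 17.7 TPM, and replicate 3 is the lowest point for most genes.

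The paralogues known from striated muscle or testis were low, and the paralogue Rps27l was detected. Rpl3l, known from striated muscle, had 1, 2 and 0 expected counts in replicates 1, 2 and 3, against 7263, 16624 and 14266 for Rpl3. Rpl10l, an intronless relative of Rpl10 active in testis, had no count in any library of either table. A count of 0 allows up to 3 counts per library, and this floor covers counting error only. Rpl39l, also known from testis, had 10, 16 and 11 expected counts, a level of 0.357 ± 0.152 TPM, against 114 ± 23.6 TPM for Rpl39 (SD, n = 3). Rps27l, a relative of Rps27 that p53 induces, had 70.0, 85.8 and 58.9 TPM, against 466, 394 and 304 TPM for Rps27, with no overlap. For Rps4x, the X-linked gene of its pair, the level was 155 ± 16.5 TPM (SD, n = 3), and its relative Rps4l was outside the rule.

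Each library was quantified in 2 ways, and the deposited tables give both. The first holds expected counts and the second est_counts. Per the note deposited with each library, the first was derived from transcriptome alignments and the second from the read files. The comparison asks where the level of a member rests on the choice of table. Of 77 members tested, 73 stayed within 2-fold and 65 within 0.2 on the log2 scale. 4 members passed the test for a difference above 2-fold: Rps12, Rpl12, Rpl10 and Rpl5. The count of 4 in 77 stands against 1.52% of 11477 genes tested, and all 4 were higher in expected counts, a direction called in 0.375% of genes. The median log2 difference, expected counts over est_counts, was 0.06 over members, where the median over all genes was set to 0 in each library. That centring removed 0.10 to 0.21.

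Rps12, a small-subunit protein, had 213, 257 and 182 CPM (counts scaled to an equal library total) in expected counts, in replicates 1, 2 and 3, against 7.22, 8.30 and 6.09 CPM in est_counts. The tables did not overlap, and the log2 difference was 4.68 (SE 0.04; adjusted p = 0.00109, limma treat against 2-fold with Benjamini-Hochberg adjustment over all genes). Rpl12, part of the base of the stalk, had 130, 161 and 120 CPM in expected counts, against 3.04, 6.77 and 3.48 CPM in est_counts. Its log2 difference was 4.73 (SE 0.17; adjusted p = 0.0107, limma treat), positive in 3 of 3 libraries. Rpl10 had 384, 406 and 284 CPM in expected counts, against 61.8, 76.8 and 55.6 CPM in est_counts. It encodes a large-subunit protein that is added last, in the cytosol, and the log2 difference was 2.32 (SE 0.09; adjusted p = 0.0234, limma treat). Rpl5 had 52.3, 56.5 and 49.7 CPM in expected counts, against 10.9, 9.77 and 8.55 CPM in est_counts. Here the log2 difference was 2.25 (SE 0.06; adjusted p = 0.0105, limma treat). All 4 were higher in expected counts in each of the 3 libraries. Without replicate 3 only Rps12 passed, and without replicate 2 Rpl10 did not, while the log2 differences kept their sign and stayed between 2.19 and 4.91.

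Each of these 4 genes had a near-identical copy that was higher in the second table. Copies were annotated genes whose transcript matched the main coding transcript of a member at an identity of 95% or more over 80% or more of the shorter one. At least 1 was found for 76 members and 617 in all, of which 576 are annotated as processed pseudogenes. Rpl21 had the most, 61, followed by Rpl7a with 37, and Rps27l had none. For the 4 genes the leading copy is a single exon that repeats the coding sequence without 1 mismatch. The first 60 coding bases, from the GENCODE transcripts, are shown for these pairs to make that identity visible. Both names share each line of sequence.
Rps12 and Rps12-ps3: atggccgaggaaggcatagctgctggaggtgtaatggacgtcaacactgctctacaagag
Rpl12 and Gm10275: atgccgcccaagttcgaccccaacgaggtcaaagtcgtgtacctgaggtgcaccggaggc
Rpl10 and Rpl10-ps3: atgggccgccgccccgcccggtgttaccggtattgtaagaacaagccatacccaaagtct
Rpl5 and Gm15500: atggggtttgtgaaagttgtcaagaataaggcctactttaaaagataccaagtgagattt
For Rps12 all 396 coding bases matched, for Rpl12 495, for Rpl10 642 and for Rpl5 891. A different case is Rps24, whose copy Rps24-ps3 on the X chromosome has 4 mismatches in 399 coding bases. The stretch below starts at coding base 321, and capitals mark its 2 mismatches.
Rps24: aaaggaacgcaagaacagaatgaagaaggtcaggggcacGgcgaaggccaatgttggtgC
Rps24-ps3: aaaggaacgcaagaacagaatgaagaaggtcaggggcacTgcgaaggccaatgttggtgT
The log2 difference of Rps24 between the tables was 0.06, and its 7 copies together held 0.168% of the expected counts of gene plus copies.

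Rps12 lies on chromosome 10 at 23785183 to 23787275 (mm10), and its main coding transcript has 6 exons and 584 bases. Rps12-ps3, on chromosome 19 at 59322290 to 59322783, matches 494 of them with no mismatch. This copy had 123, 221 and 92.7 expected counts, against 6318, 14102 and 9159 est_counts. Rpl12, on chromosome 2 at 32961559 to 32965345, has Gm10275 on chromosome 10 at 29698746 to 29699380, with 311, 756 and 371 expected counts, against 4354, 9778 and 6692 est_counts. The high table for the gene was the low table for its copy in every library of both pairs.

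Rpl10 lies on the X chromosome at 74270812 to 74273135, and Rpl10-ps3, annotated as protein-coding despite its name, on chromosome 9 at 50344201 to 50344968. The copy had 450, 936 and 617 expected counts, against 10187, 19117 and 11875 est_counts. Rpl5 lies on chromosome 5 at 107900502 to 107909005 and Gm15500 on chromosome 7 at 114705217 to 114706235. Gm15500 had 3735, 7980 and 5437 expected counts, against 5323, 11170 and 7915 est_counts. Unlike the other 3 copies it exceeded its gene in both tables, since Rpl5 itself had 1504, 3091 and 2478 expected counts. With its 7 copies added, Rpl5 reached 111 ± 11.0 TPM in place of 17.7 ± 0.329 TPM (SD, n = 3).

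When each member and its copies were summed in both tables, none of the 77 members differed by 2-fold, and the log2 differences ran from -0.26 to 0.14 with a median of 0.06. By limma treat none passed, none had an unadjusted p under 0.05, and none passed the test against no difference with a 2-fold limit either, since none reached 2-fold. This alternative was added after the values were seen. Rps12 then differed by 0.08, Rpl12 by -0.01, Rpl10 by 0.06 and Rpl5 by 0.03 on the log2 scale. Over all members, copies held 4.21% ± 0.006 of the expected counts of members plus copies and 9.27% ± 0.315 of the est_counts (SD, n = 3). In 35 of the 617 copies every aligned base was identical, and these held 58.3% ± 1.03 of the copies' expected counts and 90.2% ± 0.553 of their est_counts. Not all of these identical copies were higher in est_counts. Rps6-ps4, identical to Rps6 over 750 bases, had 178, 552 and 581 expected counts, against 0 est_counts in each library.

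**Figure D2:**
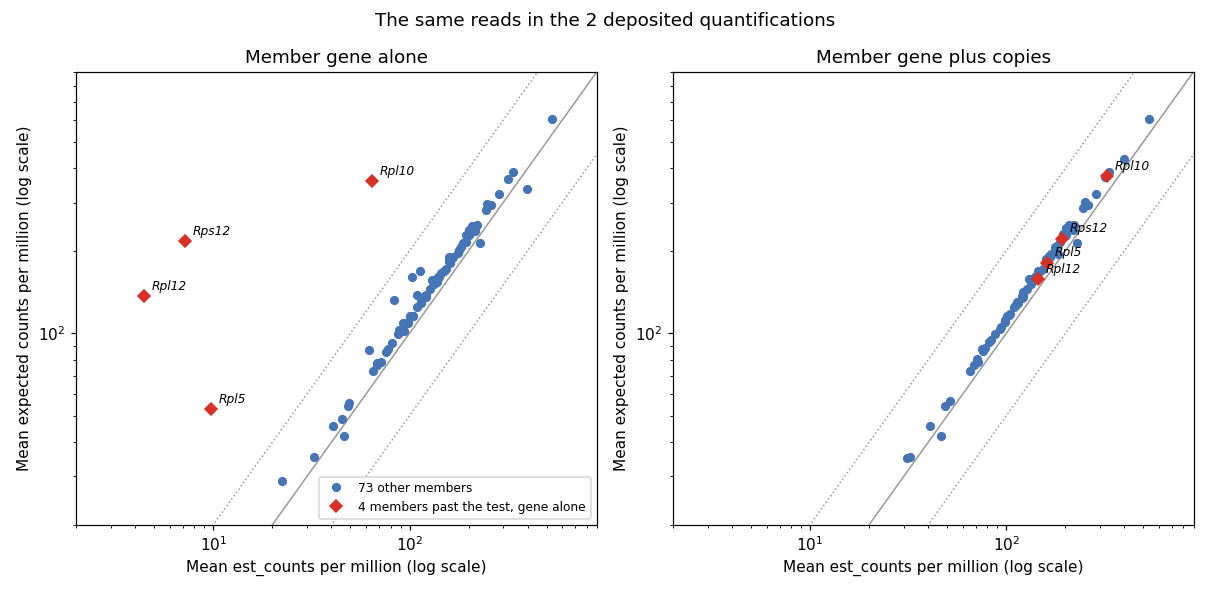
Mean CPM of expected counts on the y axis against mean CPM of est_counts on the x axis, both on log scales, for 77 members alone (left) and with their copies (right); solid line, equality, dotted lines, 2-fold. Rps12, Rpl12, Rpl10 and Rpl5 stand apart on the left and lie between the dotted lines on the right.

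Copies held over 10% of the sum for 9 members in expected counts and for 13 in est_counts. Rpl27 had 45.3% ± 9.80 of its expected counts in 7 copies, and 40.9% ± 9.39 of its est_counts. 2 of these copies, Gm11518 and Rpl27-ps3, both match Rpl27 without a mismatch over 411 bases and had the same value as each other in each library. Rpl35, a large-subunit protein near the exit of the peptide tunnel, had 34.2% ± 2.10 of its expected counts in copies, and 35.4% ± 3.00 of its est_counts (SD, n = 3). The share of Rpl27 was higher in expected counts than in est_counts in 3 of 3 libraries and that of Rpl35 lower in 3 of 3, with no test of either difference.

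For Rpl41 the tables differed in the opposite direction. Its copy Gm10076 on chromosome 14, annotated as a long intergenic noncoding RNA, repeats all 75 coding bases counted here and differs by 2 mismatches and 1 gap over 383 aligned bases. Gm10076 had 2620, 6134 and 4264 expected counts, against 2.10, 18.8 and 19.4 est_counts. Rpl41 itself was lower in expected counts, with a log2 difference of -0.38, which became -0.01 with the copies. The coding sequence that both share is short enough to show whole, without its stop codon.
Rpl41 and Gm10076: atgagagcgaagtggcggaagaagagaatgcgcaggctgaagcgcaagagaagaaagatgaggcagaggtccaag

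Rpl35a and Rpl7 were also lower in expected counts, and adding the copies left these differences nearly as they were. The log2 difference of Rpl35a was -0.26 alone and -0.26 with copies. For Rpl7 it was -0.23 alone and -0.22 with copies, with an SD of 0.26 over the libraries. The main transcript of Rpl7 had 6253, 12438 and 9507 expected counts, against 6698, 16349 and 14369 est_counts in replicates 1, 2 and 3. Neither gene passed the test.

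Where reads match several transcripts, the first table gives a posterior SD of each count. This SD stayed below the square root of the count, which is the counting noise, in at least 1 library for every member, so 0 members exceeded it in all 3, against 2.84% of the 13403 genes that averaged 10 counts or more. The median ratio of the posterior SD to that root was 0.0522 over 78 members and 0 over the other genes, so the typical member had the higher ratio. Rpl5 had the highest, 1.03, with posterior SDs of 38.4, 59.6 and 51.6 counts, and it exceeded 1 in replicates 2 and 3. Next stood Rpl27 at 0.822, Rpl31 at 0.695, Rpl36a at 0.648, Rps23 at 0.574 and Rpl15 at 0.556. The posterior SD of Rps12 was 0.20 of the root, beside a log2 difference of 4.68 between the tables.

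Most member reads stood in protein-coding transcripts, 94.0% ± 0.283 of expected counts and 92.8% ± 0.142 of est_counts (SD, n = 3). Retained-intron transcripts, which keep an intron, took 2.70% ± 0.238 of expected counts. Transcripts annotated for nonsense-mediated decay, the pathway that degrades mRNAs with an early stop codon, took 2.53% ± 0.033. These forms were unevenly spread: 62 of 77 detected members had under 5% outside protein-coding transcripts and 12 had over 10%. The same shares were not computed for other genes, so whether they are particular to the members is not known.

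Rps16 had the highest share outside, 69.9% ± 2.77 of its expected counts, all in retained-intron transcripts, and 80.9% ± 2.07 of its est_counts. Its transcript Rps16-203, a retained-intron form of 518 bases, had 1343, 3124 and 2097 expected counts. The coding form Rps16-201, of 1109 bases, had 803, 1451 and 1172. Rps20 had 52.0% ± 0.325 in a retained-intron transcript of 582 bases, beside a coding transcript annotated with 3706 bases. Both tables put over 50% of each of these 2 genes outside the coding class.

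Rps23 had 43.9% ± 4.27 outside, mainly in a processed transcript, Rpsa had 40.3% ± 3.04, mainly in a decay transcript, and Rpl13a had 39.7% ± 6.01 (SD, n = 3). For Rpsa and Rpl13a the second table gave higher shares, 61.9% ± 1.30 and 57.7% ± 4.90. The tables differed most for Rpl12, with 25.4% ± 2.31 of expected counts outside the coding class, against 75.8% ± 6.89 of est_counts. Next came Rps12, with 1.53% ± 0.143 of expected counts, against 43.3% ± 6.06 of est_counts (SD, n = 3). Both are among the 4 genes whose est_counts were low beside those of a copy with the same coding sequence. These classes are annotations of overlapping models that share most of their exons with the coding form. The files give no reads, so whether an intron itself was covered was not tested.

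**Figure D3:**
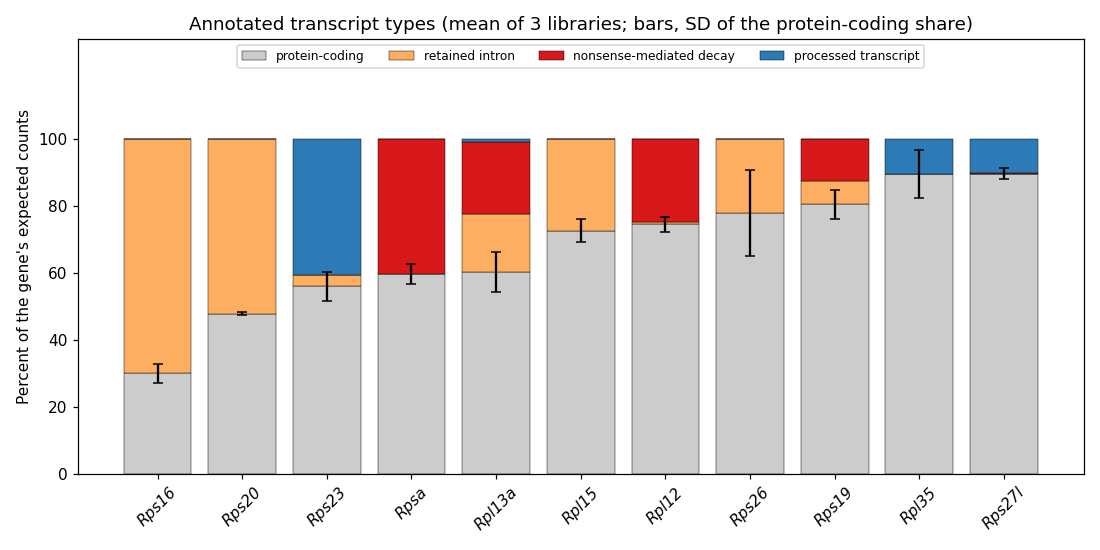
Percent of each gene's expected counts by annotated transcript type, for 11 of the 12 detected members with over 10% outside protein-coding transcripts; bars are means of 3 libraries and error bars the SD of the protein-coding share. Retained-intron forms exceed the protein-coding share in Rps16 and Rps20, while in Rpsa and Rps23 that share stays above 50%, beside a decay form and a processed transcript.

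The share of all expected counts that members held was 1.24%, 1.45% and 1.15% by replicate, and their share of TPM was 1.67%, 1.73% and 1.46%. Of the TPM of nuclear protein-coding genes they held 5.56%, 6.21% and 4.96%. Replicate 3 had the lowest share and replicate 2 the highest on each of these scales. In a bulk sample, fewer cells with these mRNAs and less of them per cell cannot be told apart.

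Scaled by TMM, replicate 3 was below the mean of replicates 1 and 2 for 75 of the 78 members that averaged 10 counts or more, against 48.7% of 13403 genes. The median log2 ratio was -0.22 over members and 0.01 over the other 13325 genes. Among 468 other protein-coding genes as abundant as all but the lowest 10% of detected members, 58.8% were lower in replicate 3, with a median of -0.04. Replicate 2 was above the mean of the other libraries for all 78 members, with a median of 0.23, and replicate 1 was lower than the others for 41 of 78. Replicate 3 was singled out because earlier results of these data had shown members shifted in it, so its counts are a description without a test. The look at replicates 1 and 2 was added after the values were seen. The shift held for 77 of 78 in the est_counts table, against 55.69% of all genes there.

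Rpl27 had the lowest ratio, with 33.6 CPM in expected counts in replicate 3, against 57.0 and 55.1 in replicates 1 and 2, a log2 ratio of -0.72. Rpl37 followed with 41.9 in replicate 3, against 62.7 and 62.2, a log2 ratio of -0.56. Rpl39 had 57.7 in replicate 3, against 80.4 and 91.7, also -0.56. In these 3 genes replicate 3 lay below both other libraries. For Rpl27, copies held 35.4%, 45.3% and 55.0% of the expected counts of gene plus copies in replicates 1, 2 and 3. The part of this in its ratio was not tested. Rpl31, Rpl10 and Rps27 came next at -0.55, -0.46 and -0.44. At the other end Rpl3 was at 0.06, Rpl41 at 0.04, Rpl18 at 0.01, Rps9 at -0.01, Rps15 at -0.05 and Rpsa at -0.07.

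Some other sets of RNAs summed higher in replicate 3 on the scale named with each, opposite to the members. The nuclear RNAs Malat1 and Neat1 together had 4300 CPM in expected counts in replicate 3, against 2332 and 1397 in replicates 1 and 2. The 13 mitochondrially encoded mRNAs had 3289 in replicate 3, against 2013 and 2135. The 10 macrophage markers had 12859 in replicate 3, against 12355 and 12564, though 3 of the 10, Lyz2, Cd68 and Cd14, were lower there on TMM-scaled CPM. In TPM these 10 summed to 5183 in replicate 3, against 5198 and 4941 in replicates 1 and 2, so replicate 1 was the highest. Neutrophil markers summed to 0.90 TPM in replicate 3, against 0.30 and 0.59 TPM, with Ly6g and Retnlg, 2 of 6, at 0 in all libraries. Ngp, Elane and Mpo were highest in replicate 3, and Camp, at 0.11 TPM against 0.08 and 0.24, was not. These levels lie near the floor: only 1 of the 6 averaged 10 counts or more. The part of these in the result was not tested.

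**Figure D4:**
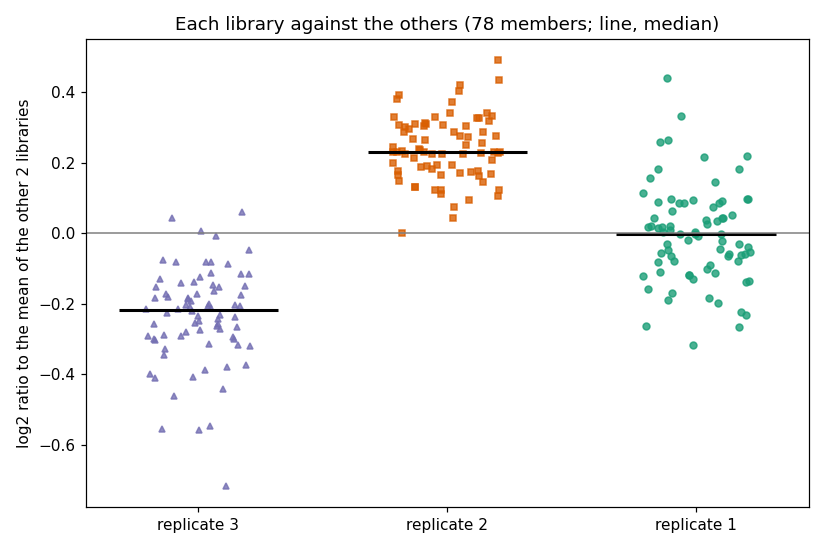
log2 ratio of each library to the mean of the other 2 for 78 members, TMM-scaled CPM; points are genes and lines medians. Replicate 3 lies mostly below 0 with a median of -0.22, replicate 2 at or above 0 with a median of 0.23, and replicate 1 around 0.

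Between the 3 libraries, 76 of 78 members differed by more than counting and assignment noise (chi-square test of homogeneity, 2 degrees of freedom, Benjamini-Hochberg adjusted p under 0.05), against 63% of 13403 genes. The test finds more in abundant genes, and 71.5% of those averaging 100 counts or more passed. Rpl5, with an adjusted p of 0.068 by that chi-square test, and the scarce Rpl39l, at 0.613, did not pass. The sizes were modest: the coefficient of variation of TPM had a median of 10.3% over detected members, against 11.4% over the 468 protein-coding genes of like level. The lowest was 1.79% and the highest 28.3%, for Rpl18 and Rpl27. With copies added, Rpl27 had 190 ± 15.7 TPM (SD, n = 3).

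Related genes outside the naming rule were set beside the members. Of the ribosome genes with other names, all 7 listed were detected. Fau, which encodes a small-subunit protein fused to a ubiquitin-like domain, had 425 ± 8.13 TPM, and Rack1, a scaffold on the small subunit, had 89.4 ± 9.18 TPM (SD, n = 3). Rps3a1, whose symbol ends in a digit and which was added later, had 235 ± 10.1 TPM. Rpl36al, a relative of Rpl36a, had 93.4 ± 8.98 TPM (SD, n = 3). On TMM-scaled CPM all 7 listed genes were lower in replicate 3 than the mean of replicates 1 and 2, and the counts for the lists that follow are on the same scale. In TPM, Rpl7l1 had 24.1 in replicate 3, against 21.6 and 22.9 in replicates 1 and 2, so its direction was the opposite there.

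The 14 other TOP mRNAs were all detected, led by the elongation factor gene Eef1a1 at 980 ± 80.5 TPM, Tpt1 at 623 ± 111, the poly(A)-binding protein gene Pabpc1 at 230 ± 4.62 and Eef2 at 223 ± 12.4 TPM (SD, n = 3). Their median was 62.3 TPM, and replicate 3 was the lower one for 12 of 14, at a median log2 ratio of -0.19. The 22 ribosome assembly genes had a median of 5.50 TPM, led by nucleolin, Ncl, at 39.4 ± 3.85, Sbds at 23.9 ± 1.60, Eif6 at 21.3 ± 1.77 and Nop56 at 13.6 ± 2.09 TPM (SD, n = 3). Only 7 of these 22 were lower in replicate 3, with a median of 0.06.

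Among 6 genes of rRNA transcription the median was 5.93 TPM, led by Ubtf at 13.0 ± 0.370 TPM (SD, n = 3), and 1 was lower in replicate 3. The 78 mitochondrial ribosomal protein genes, all detected, had a median of 12.1 TPM, and 47 were lower in replicate 3, with a median of -0.02. Of the 126 genes in these lists tested between the tables, none passed by limma treat and 1 had an unadjusted p under 0.05 (Mrpl23, with a log2 difference of 1.73, named after its value was seen).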

How the data were processed

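The naming rule uses no measured value, but the members, lists and tests were chosen with earlier results of these data known. Per the file headers, the authors deposited expected counts, TPM and a posterior SD (and posterior mean counts) per gene and transcript, and a second transcript table of estimated counts and TPM, summed per gene here. A note deposited beside the tables names mm10 and GENCODE M21. For programs, versions and strand use, what was used is not given in the sources used here. Rows naming no gene held 0.167% to 0.774% of expected counts and were left out.

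Tables were compared with limma 3.58.1 treat (R 4.3.3) on differences of log2(CPM + 0.5), centred on the median gene, for genes with a mean CPM of at least 1. Both tables come from the same libraries, so differences within each library were tested and no count model was used. Libraries were compared with a chi-square test, with TMM sizes from edgeR 4.0.16 and a variance of the expected value plus the squared posterior SD. Copies came from blastn 2.17.0. Tests were checked on simulated data, with the outcomes not given here. For the chi-square test, genes left unchanged in the simulation varied by counting and assignment noise alone. That check therefore cannot show how the test behaves with other spread between libraries. Named genes were the 8 highest and 8 lowest, the undetected, those past the test between tables, the extremes of each measure (6 each), fixed pairs, and up to 4 per related list. DESeq2 1.42.0 size factors were an alternative. For 3 libraries the smallest p of an exact sign-flip test is 0.25. The lists of 7SL, nuclear and mitochondrially encoded RNAs were added after the values were seen. Protein sequences were not used here. Some genes are counted in the totals but not reported here by name.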

Additional observations from a re-analysis of the deposited data

How the results depend on the processing

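No groups of samples could be paired, because all 3 libraries form 1 group. The 2 tables were compared as pairs within each library. The count of 4 members past the test between the tables was also 4 with a pseudocount of 0.1 or 5 CPM, with TPM, without centring, without the filter and by the test against no difference with a 2-fold limit. It ranged from 1 to 4 when a replicate was left out, and was 0 with copies added at an identity of 90%, 95% or 98%, an alternative added later. No member exceeded 2-fold with copies in any setting tried. The members with a posterior SD above the root numbered 0 to 1 when a replicate was left out, the 1 being Rpl5 without replicate 1. Their share of counts, 1.28% ± 0.156 (SD, n = 3), was 1.07% in est_counts and 1.46% of nuclear protein-coding genes, and 1.19% to 1.34% with a replicate left out. The median level of 182 TPM was 74.99 TPM in the second table and 625 when scaled to nuclear protein-coding genes. The protein-coding share of 94.0% was 92.8% in the second table. These alternatives for level and transcript type were also added after the values were seen. The counts of members lower in replicate 3 were 75 to 77, of members differing between libraries 62 to 77, and of members detected 77 to 78, over all alternatives run. Over all genes, 48.65% to 55.69% were lower in replicate 3, and 40.74% to 71.49% differed between libraries. The 62 members without replicate 2 stood against 42.93% of all genes. Replicate 1 had the lowest depth and limits genes with few counts, such as Rpl39l.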
